A study of Arabidopsis thaliana with 6 samples.

Results

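The A, B and D type cyclins, the CDKA and CDKB kinases and the KRP inhibitors of Arabidopsis were described in young flower buds. They were chosen by gene family, from a list of gene IDs drawn up when earlier results of these data were known, and they are 36 of the 27628 Arabidopsis genes counted: 9 A cyclins, 9 B cyclins, 6 D cyclins, CDKA;1, 4 CDKB kinases and 7 KRP inhibitors. RNA was sequenced from flower buds with anthers at stages 6 to 9, when pollen mother cells pass through meiosis and microspores form. The 3 BnA9::BnMAGL8.1 libraries came from Col plants in which BnA9, a promoter active in the tapetum (the nurse cell layer of the anther), drives a monoacylglycerol lipase gene of Brassica napus, and the 3 WT libraries came from Col plants without it. All plants grew in a greenhouse at 23 °C with 16 h of light and 8 h of darkness. Whole buds were taken, so the tapetum is only a part of each sample. How many plants made up a sample, at which hour they were taken and which of the study's transgenic lines each sample came from is not stated in the sources used here.

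The plant cell cycle is driven by kinases that are active only when bound to a cyclin. D cyclins with CDKA;1 act on the retinoblastoma protein and so release E2F factors at entry into DNA synthesis, A cyclins act through DNA synthesis and into mitosis, and B cyclins with CDKA;1 and the plant-specific CDKB kinases act at mitosis. KRP proteins (Kip-related proteins) bind the cyclin-CDK complex and inhibit it. Many B cyclin genes are transcribed at mitosis through MYB3R factors, which bind the mitosis-specific activator (MSA) element, and young buds hold dividing cells of the floral organs beside the meiocytes.

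Each library held between 13519945 and 14729927 counts. The transgene had 5552, 853 and 9594 counts in transgenic replicates 1, 2 and 3 and 0 in each WT library, so the labels held, and replicate 2 expressed it least. Floral organ identity genes summed to 769–858 CPM (CPM scales each count to the library's total, after TMM normalisation) in transgenic buds and 732–855 CPM in WT buds. Summed tapetum marker genes ranged over 641–1551 CPM in transgenic buds and 1068–2293 CPM in WT buds, and all 10 of those tested were lower in transgenic buds, 2 of them at an unadjusted p under 0.05. DYT1, a defining factor of the tapetum, and CLV3, a meristem signal, were listed at 0 counts in every library, and these 0 values are not read as absence from the buds. Summed meiosis markers were 20.8–25.8 CPM in transgenic buds and 23.3–26.0 CPM in WT buds. Only 4 of these 12 markers had enough counts to be tested. One of them, DMC1, had a mean of 12.2 CPM in transgenic buds and 12.1 CPM in WT buds. A score of morning over evening clock genes was 0.35, 0.56 and -2.42 in transgenic replicates 1 to 3 and -0.37, -2.75 and 4.64 in WT replicates 1 to 3, so WT replicate 3 stood apart from the other 5 libraries. The part of these differences in the results that follow was not tested beyond a fit with the clock score as a covariate. In bulk samples like these, fewer cells of a type and less RNA per cell cannot be told apart.

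Levels were compared between genes as CPM per kb of exon. The D cyclins and the CDKB genes had the highest summed levels, and the A cyclins, B cyclins and KRP genes had sums in overlapping ranges. The 6 D cyclins together reached 130–152 CPM per kb in transgenic buds and 127–140 CPM per kb in WT buds, the 4 CDKB genes 87.8–113 CPM per kb in transgenic buds and 88.5–98.9 CPM per kb in WT buds, and CDKA;1 28.4–32.8 CPM per kb in transgenic buds and 23.5–29.7 CPM per kb in WT buds. The 9 A cyclins summed to 38.0–41.3 CPM per kb in transgenic buds and 36.8–41.3 CPM per kb in WT buds, and the 9 B cyclins to 30.1–40.1 CPM per kb in transgenic buds and 34.2–41.6 CPM per kb in WT buds. The 7 KRP genes summed to 31.1–45.1 CPM per kb in transgenic buds and 33.2–35.0 CPM per kb in WT buds. The ranges of the genotypes overlapped in every class.

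The order of single genes had CYCD3;2 (AT5G67260), CDKB2;1 (AT1G76540) and CYCD3;3 (AT3G50070) at the top, with overlapping ranges among them. CYCD3;2 was measured at 52.8, 52.4 and 57.4 CPM per kb in transgenic buds and 54.9, 50.8 and 60.4 CPM per kb in WT buds. A gap separated these from CDKA;1 (AT3G48750), CDKB1;1 (AT3G54180) and CYCD3;1 (AT4G34160), and a second gap separated CYCD3;1 from the genes under it. From CYCD1;1 (AT1G70210), at 11.3, 13.7 and 11.2 CPM per kb in transgenic buds and 11.8, 9.05 and 12.2 CPM per kb in WT buds, down to KRP1, no pair of neighbours was separated. In all, the ranges over 6 libraries overlapped in 32 of the 35 neighbouring pairs. CYCA2;1 (AT5G25380) stood alone at the bottom, at 0.16, 0.07 and 0.15 CPM per kb in transgenic buds and 0.30, 0.15 and 0.29 CPM per kb in WT buds. It was the only gene of the 36 that did not pass the filter on low counts, and 35 were tested. The median over all genes tested was 7.42 CPM per kb, and 13 of the 36 genes reached it.

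**Figure D1:**
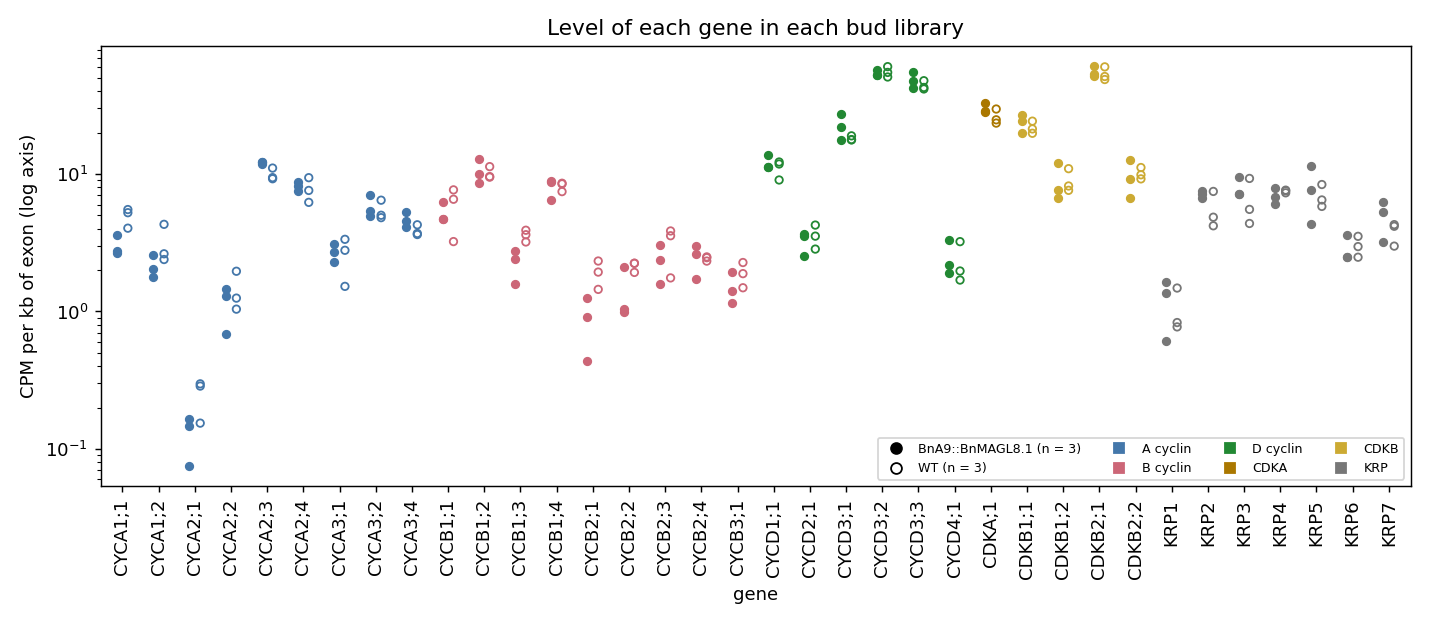
Level of each of the 36 genes in each library, as CPM per kb of exon on a log axis. Filled points are the 3 BnA9::BnMAGL8.1 libraries, open points to their right the 3 WT libraries, and colours mark the gene class. CYCD3;2, CDKB2;1 and CYCD3;3 lie above 40 CPM per kb in every library, and CYCA2;1 lies below all the others.

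Single genes differed in their share of the signal of their class. CYCD3 cyclins keep cells of young organs dividing, and CYCD3;2 alone made up 38.1% ± 2.6 of the D cyclin signal in transgenic buds and 41.2% ± 2.7 in WT buds (SD, n = 3 each). CDKB2;1 made up 57.2% ± 3.4 of the CDKB signal in transgenic buds and 56.7% ± 4.9 in WT buds. Its paralog CDKB2;2 (AT1G20930) was lower in each library, with a ratio of CDKB2;1 to CDKB2;2 between 4.37 and 7.99. CDKB1;1 exceeded CDKB1;2 (AT2G38620) by 2.22 to 3.61 times. CDKB2;1 also exceeded CDKA;1 in all 6 libraries, by 1.63 to 2.43 times per kb. CDKB1;1 and CDKA;1 could not be ordered, since their ratio ran from 0.611 to 1.03.

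Among the A cyclins, CYCA2;3 (AT1G15570) and CYCA2;4 (AT1G80370), of the group that works with CDKB1 kinases to hold back endoreduplication, gave the largest shares. CYCA2;3 made up 30.5% ± 1.8 of the class in transgenic buds and 25.3% ± 2.6 in WT buds. Among the B cyclins the largest share was that of CYCB1;2 (AT5G06150), with 30.2% ± 1.6 in transgenic buds and 26.0% ± 2.7 in WT buds, followed by CYCB1;4 (AT2G26760) with 23.3% ± 2.5 in transgenic buds and 20.9% ± 0.73 in WT buds. CYCB1;1 (AT4G37490), a widely used reporter of cells at G2 and mitosis, gave 15.1% ± 0.82 in transgenic buds and 14.6% ± 4.7 in WT buds. No KRP led its class: KRP2, KRP3, KRP4 and KRP5 each gave between 12.3% and 27.2% of the KRP signal in every library.

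Some counts cannot be assigned to these genes with certainty. KRP4 (AT2G32710) shares 926 exon bases with a gene on the opposite strand, and 36.7% of its 50-base stretches lie in that gene. The same share was 14.3% for CDKB1;2 and 10.6% for CDKB2;2, again with opposite-strand neighbours, and it is not known here whether counting used the strand. Of the stretches of CYCB2;3 (AT1G20610), 17.3% are also in CYCB2;5 (AT1G20590), and 11.2% of those of CYCB1;2 are in CYCB1;5 (AT1G34460). CYCB1;5 had at most 0.1431 CPM in any library, which is under the 3-count limit given below. CYCB2;5 was measured at 0.40, 0.36 and 0 CPM in transgenic buds and 1.22, 0 and 1.75 CPM in WT buds.

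The question of the comparison was whether these genes differed between transgenic and WT buds. Counts were fitted over all 18642 genes tested with edgeR's quasi-likelihood test, fold changes are transgenic over WT on the log2 scale with their standard error (SE), and p-values were adjusted over all genes by Benjamini and Hochberg with a threshold of 0.05. None of the 35 genes tested passed, and the smallest adjusted p among them was 0.72. Over all genes, 0.0107% passed as higher and 0.00536% as lower. DESeq2 and limma-voom also called 0 of these genes. At an unadjusted p under 0.05, 0 of the 35 were higher, beside 2.57% of all genes, and 3 (8.57%) were lower, beside 4.26% of all genes. At that level DESeq2 gave 0 higher and 2 lower, and limma-voom 1 higher and 3 lower. The libraries of the genotypes did not overlap for 1 higher gene (2.86%, beside 5.57% of all genes) and the same 3 lower genes (8.57%, beside 6.62%). Since 1 gene of the 35 is 2.86%, these shares are not read as a difference from all genes. By sign, 19 were above and 16 below WT. Their median log2 fold change was 0.05 (-0.01 over all genes). For 24 of the 35, the 95% interval lay within a 2-fold change in either direction, as it did for 12240 of all 18642 genes. Replicates were called biological by the study with no further detail, so the p-values reflect only how far these samples differ.

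**Figure D2:**
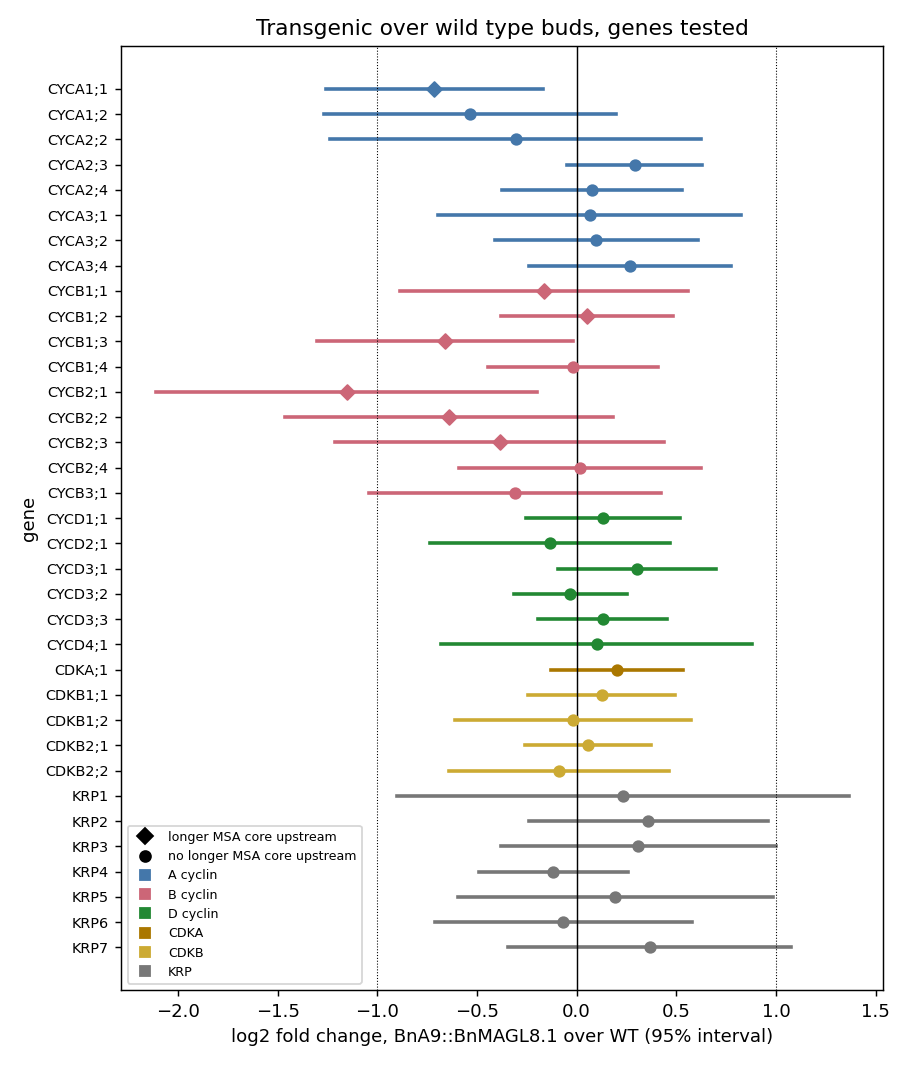
Log2 fold change of each of the 35 genes tested, BnA9::BnMAGL8.1 over WT, with its 95% interval from the edgeR fit. Colours mark the class, diamonds the genes with a longer MSA core upstream, and dotted lines a 2-fold change. The intervals of CYCA1;1, CYCB1;3 and CYCB2;1 lie below 0, and every other interval crosses it.

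D cyclins, which start the cycle, did not pass the test in either direction, and all 6 intervals lay within a 2-fold change. CYCD3;1, which responds to cytokinin, had 33.2, 51.2 and 41.5 CPM in transgenic buds and 33.4, 35.5 and 33.2 CPM in WT buds. Transgenic replicate 2 was the highest library and transgenic replicate 1 lay within the WT range. Its log2 fold change was 0.30 (SE 0.17, adjusted p = 0.755), or 0.14 without transgenic replicate 2 and 0.45 without transgenic replicate 1 (edgeR unadjusted p = 0.0239). CYCD3;2 had 88.9, 88.1 and 96.6 CPM in transgenic buds and 92.3, 85.5 and 102 CPM in WT buds, a log2 fold change of -0.03 with an interval of -0.32 to 0.26. This was among the narrowest intervals of the 35, and the genotypes overlapped fully. CYCD3;3 had a log2 fold change of 0.13, from 60.6, 68.6 and 78.8 CPM in transgenic buds and 68.7, 61.4 and 59.8 CPM in WT buds. CYCD1;1 had one of 0.13, CYCD2;1 (AT2G22490), a cyclin tied to sugar supply, one of -0.13, and CYCD4;1 (AT5G65420) one of 0.10 with the widest interval of the class, -0.68 to 0.88.

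The kinases were measured closely enough to bound a change. CDKA;1, the only Arabidopsis CDK with the conserved PSTAIRE motif and one needed for division of the male germ cell, had 42.9, 49.1 and 42.5 CPM in transgenic buds and 35.2, 37.2 and 44.5 CPM in WT buds. WT replicate 3 lay above 2 transgenic libraries. The log2 fold change was 0.20 (SE 0.15, interval -0.13 to 0.53, adjusted p = 0.793). CDKB2;1, which acts at mitosis and in meristems, had 71.1, 73.1 and 83.6 CPM in transgenic buds and 66.6, 82.3 and 70.0 CPM in WT buds. These overlapped, with a log2 fold change of 0.06 (SE 0.14, interval -0.26 to 0.37). CDKB1;1 had a log2 fold change of 0.13, CDKB1;2 one of -0.02 and CDKB2;2 one of -0.09, and all 4 CDKB intervals lay within a 2-fold change.

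Of the KRP inhibitors, 5 of 7 had a positive fold change and none passed the test, with a median log2 fold change of 0.23. KRP2 (AT3G50630), which curbs division and affects endoreduplication in leaves, had 7.53, 8.45 and 8.09 CPM in transgenic buds and 8.44, 5.48 and 4.75 CPM in WT buds. WT replicate 1 was as high as the transgenic libraries, and the log2 fold change was 0.36 (SE 0.26, adjusted p = 0.795), or 0.65 without that library (edgeR unadjusted p = 0.0373). KRP3 (AT5G48820) had 8.49, 11.4 and 8.51 CPM in transgenic buds and 5.22, 6.61 and 11.1 CPM in WT buds, with WT replicate 3 within the transgenic range. Its log2 fold change was 0.31 (SE 0.30), or 0.68 without that library (edgeR unadjusted p = 0.0297) and 0.09 without WT replicate 1. KRP7 (AT1G49620) had the largest fold change of the class, 0.37, and KRP1 (AT2G23430) the widest interval, -0.90 to 1.37. KRP5 (AT3G24810) had 4.25, 7.58 and 11.3 CPM in transgenic buds and 6.38, 8.26 and 5.73 CPM in WT buds. The transgenic libraries held both its lowest and its highest value, and its log2 fold change was 0.19 (SE 0.35). KRP4, which binds mitotic chromosomes in shoot meristem cells, had 16.2, 14.6 and 18.8 CPM in transgenic buds and 18.0, 18.3 and 17.5 CPM in WT buds, the narrowest interval of the KRP genes (-0.49 to 0.26). KRP6 (AT3G19150), which is removed by the F-box protein FBL17 when the male germ cell divides, had a log2 fold change of -0.07.

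The A cyclins did not move together. Of the 8 tested, 5 had a positive and 3 a negative fold change, and the 3 largest in size were negative. CYCA1;1 (AT1G44110), a cyclin of mitotic cells, had 4.89, 5.03 and 6.51 CPM in transgenic buds and 9.54, 7.36 and 10.1 CPM in WT buds. Every transgenic library lay below every WT library. Its mean was 5.48 ± 0.90 CPM in transgenic buds and 8.98 ± 1.4 CPM in WT buds (SD, n = 3 each), and its log2 fold change was -0.71 (SE 0.24, edgeR unadjusted p = 0.0158, adjusted p = 0.72). CYCA2;3 was the only one of the 35 with every transgenic library above every WT library, at 24.9, 25.1 and 24.1 CPM in transgenic buds and 19.2, 18.9 and 22.6 CPM in WT buds. Its log2 fold change was 0.29 (SE 0.15, edgeR unadjusted p = 0.0822, adjusted p = 0.743). CYCA2;4, of the same group, had 13.9, 16.0 and 14.9 CPM in transgenic buds and 17.2, 13.9 and 11.4 CPM in WT buds, and a log2 fold change of 0.08.

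CYCA1;2 (AT1G77390), also called TAM, is needed in male meiosis for timely progress to the second division. It had 3.53, 3.06 and 4.44 CPM in transgenic buds and 4.12, 7.43 and 4.54 CPM in WT buds. WT replicate 2 stood above the other 5 libraries, and the log2 fold change was -0.53 (SE 0.32, adjusted p = 0.76). CYCA2;2 (AT5G11300) had a log2 fold change of -0.31 with an interval of -1.24 to 0.62. The CYCA3 cyclins, linked to DNA synthesis, had log2 fold changes of 0.07 for CYCA3;1 (AT5G43080), 0.10 for CYCA3;2 (AT1G47210) and 0.27 for CYCA3;4 (AT1G47230).

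Of the 9 B cyclins, 7 had a negative fold change, and the median was -0.31, the lowest of the classes. CYCB1;3 (AT3G11520) had 4.01, 2.62 and 4.58 CPM in transgenic buds and 5.99, 6.46 and 5.31 CPM in WT buds. The genotypes did not overlap, and transgenic replicate 2 was the lowest library. Its mean was 3.74 ± 1.0 CPM in transgenic buds and 5.92 ± 0.58 CPM in WT buds (SD, n = 3 each), with a log2 fold change of -0.66 (SE 0.28, edgeR unadjusted p = 0.0444, adjusted p = 0.722). CYCB2;1 (AT2G17620) was scarce, with 26, 10 and 21 counts in transgenic libraries and 60, 32 and 46 in WT libraries. This came to 2.08, 0.73 and 1.50 CPM in transgenic buds and 3.87, 2.40 and 3.21 CPM in WT buds, again without overlap and with transgenic replicate 2 lowest. Its log2 fold change of -1.15 was the largest of the 35 (SE 0.42, interval -2.11 to -0.20, edgeR unadjusted p = 0.0234, adjusted p = 0.72).

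The signs of these 3 genes held when any library was left out, while their unadjusted p crossed 0.05 in several of these smaller fits. CYCA1;1 ran from -0.86 to -0.63 and was above 0.05 without transgenic replicate 1 (edgeR unadjusted p = 0.0528) or 2 (edgeR unadjusted p = 0.055). CYCB1;3 ran from -0.84 to -0.46, was above 0.05 without any of 4 of the 6 libraries, and had an unadjusted p of 0.0605 in DESeq2. CYCB2;1 ran from -1.50 to -0.83 and was above 0.05 without transgenic replicate 2 or WT replicate 1. Transgenic replicate 2 had the least transgene RNA of the transgenic libraries and also the lowest tapetum marker sum of the 6 libraries. These traits cannot be told apart here. CYCA2;3 was under 0.05 without WT replicate 3, the library with the high clock score, and in the fit with the clock score as a covariate. The other B cyclins overlapped between genotypes. CYCB2;2 (AT4G35620) had 3.69, 1.82 and 1.72 CPM in transgenic buds and 3.35, 3.91 and 3.91 CPM in WT buds, with transgenic replicate 1 within the WT range and a log2 fold change of -0.64 (SE 0.36, adjusted p = 0.752). Without transgenic replicate 1 it was -1.07 (edgeR unadjusted p = 0.0194). CYCB2;3 had a log2 fold change of -0.39, CYCB3;1 (AT1G16330), which acts in meiosis, one of -0.31, and CYCB1;1 one of -0.16.

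CYCB1;2, the most abundant B cyclin, had 15.8, 18.4 and 23.3 CPM in transgenic buds and 17.3, 17.5 and 20.7 CPM in WT buds. These overlapped fully, with a log2 fold change of 0.05 (SE 0.19, interval -0.38 to 0.48). CYCB1;4 had 11.9, 16.0 and 16.2 CPM in transgenic buds and 15.5, 13.6 and 15.6 CPM in WT buds, with a log2 fold change of -0.02 (interval -0.44 to 0.41). CYCB2;4 (AT1G76310) had a log2 fold change of 0.02. The B cyclins with the highest levels, CYCB1;2, CYCB1;4 and CYCB1;1, all had intervals within a 2-fold change.

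**Figure D3:**
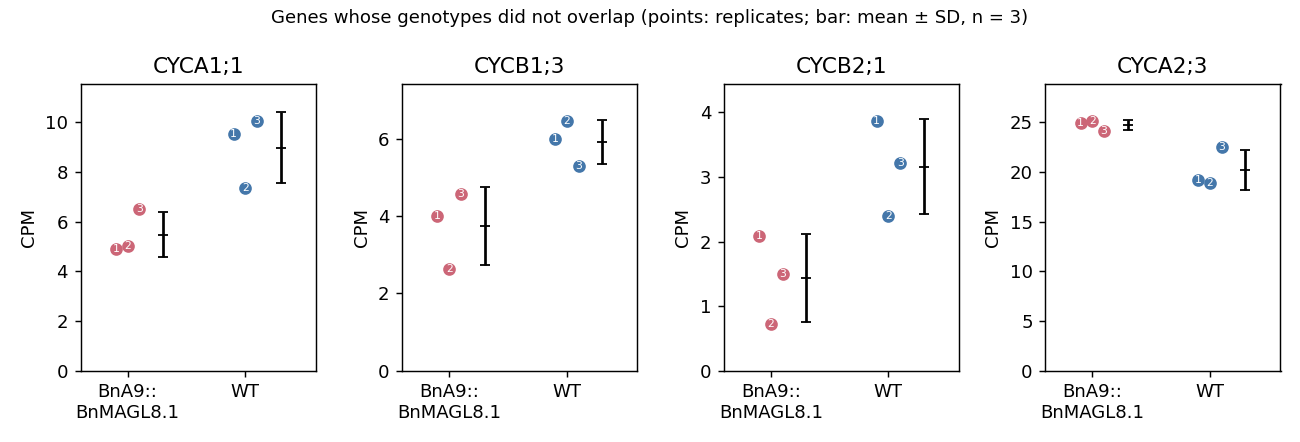
CPM of the 4 genes whose genotypes did not overlap, BnA9::BnMAGL8.1 at the left of each panel and WT at the right. Points are libraries, numbered by replicate, and black bars are the mean ± SD of 3 libraries. CYCA1;1, CYCB1;3 and CYCB2;1 are lower and CYCA2;3 is higher in every transgenic library, and none of the 4 passed the adjusted threshold.

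The MSA element was then looked up in the 250 bases upstream of each annotated gene start in the RefSeq annotation of build TAIR10.1. This search was chosen after the fold changes had been seen, so it is a description of these genes. The MSA core was read as AACGG, the longer MSA core as CNAACGG (so each longer core holds a core), and an E2F word as TTTCCCGC, TTTCGCGC, TTTGCCGC or TTTGGCGC, all on both strands. The longer core was present upstream of 7 of the 36 genes, beside 4.51% of 27418 gene starts in the genome. These were CYCA1;1, CYCB1;1, CYCB1;2, CYCB1;3, CYCB2;1, CYCB2;2 and CYCB2;3, so 6 of the 9 B cyclins held it. The MSA core in any context was upstream of 16 of the 36 genes, beside 20.6% of gene starts, including 4 KRP genes. An E2F word was found upstream of CYCA1;2 and CYCD3;3 only, beside 1.41% of gene starts. A match is not evidence of binding, and a window without one shows only that these letters are not in it.

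The upstream windows of the 3 genes at unadjusted p under 0.05 are shown with those of CYCB1;2, which has the most longer cores and a fold change near 0, and CYCB1;4, which has none. Each runs 5′ to 3′ toward the gene, ends at the base before the annotated start, and has every MSA core, on either strand, in capitals. They lie at chr1:16777353-16777602 on the minus strand for CYCA1;1, chr3:3627274-3627523 on the minus strand for CYCB1;3, chr2:7663805-7664054 on the plus strand for CYCB2;1, chr5:1861704-1861953 on the minus strand for CYCB1;2 and chr2:11400868-11401117 on the plus strand for CYCB1;4, and none overlaps an exon of another gene.
CYCA1;1: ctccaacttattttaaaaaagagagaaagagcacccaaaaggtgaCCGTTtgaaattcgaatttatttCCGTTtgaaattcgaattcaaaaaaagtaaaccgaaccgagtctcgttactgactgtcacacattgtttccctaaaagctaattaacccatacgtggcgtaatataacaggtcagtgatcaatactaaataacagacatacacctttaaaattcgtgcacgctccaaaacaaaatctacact
CYCB1;3: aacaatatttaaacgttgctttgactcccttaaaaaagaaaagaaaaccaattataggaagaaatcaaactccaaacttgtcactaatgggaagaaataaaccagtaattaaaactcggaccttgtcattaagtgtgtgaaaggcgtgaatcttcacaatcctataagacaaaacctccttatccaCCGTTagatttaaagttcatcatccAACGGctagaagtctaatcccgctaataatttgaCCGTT
CYCB2;1: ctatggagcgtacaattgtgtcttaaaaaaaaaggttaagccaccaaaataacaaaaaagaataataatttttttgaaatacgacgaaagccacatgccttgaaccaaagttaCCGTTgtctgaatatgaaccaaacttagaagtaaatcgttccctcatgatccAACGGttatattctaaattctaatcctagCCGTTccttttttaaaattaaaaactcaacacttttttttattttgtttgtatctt
CYCB1;2: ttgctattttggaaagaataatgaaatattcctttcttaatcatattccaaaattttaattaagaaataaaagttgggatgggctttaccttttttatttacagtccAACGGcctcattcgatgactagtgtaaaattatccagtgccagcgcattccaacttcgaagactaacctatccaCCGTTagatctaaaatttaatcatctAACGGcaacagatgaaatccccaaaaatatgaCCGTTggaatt
CYCB1;4: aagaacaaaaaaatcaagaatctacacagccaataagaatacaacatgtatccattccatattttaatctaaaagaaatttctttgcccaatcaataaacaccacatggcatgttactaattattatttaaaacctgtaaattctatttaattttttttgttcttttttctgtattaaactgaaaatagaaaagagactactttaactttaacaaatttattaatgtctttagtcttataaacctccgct

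Cores began 205 and 182 bases before the start of CYCA1;1, both within the longer core. In CYCB1;3 they began at 64, 39 and 5 bases, the first pair within the longer core. The core at 5 bases ends at the edge of the window, so a longer core there could not be seen. In CYCB2;1 cores began at 137, 85 and 56 bases, with only the one at 85 within the longer core. CYCB1;2 had 4 cores, at 143, 69, 43 and 11 bases, all within the longer core.

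**Figure D4:**
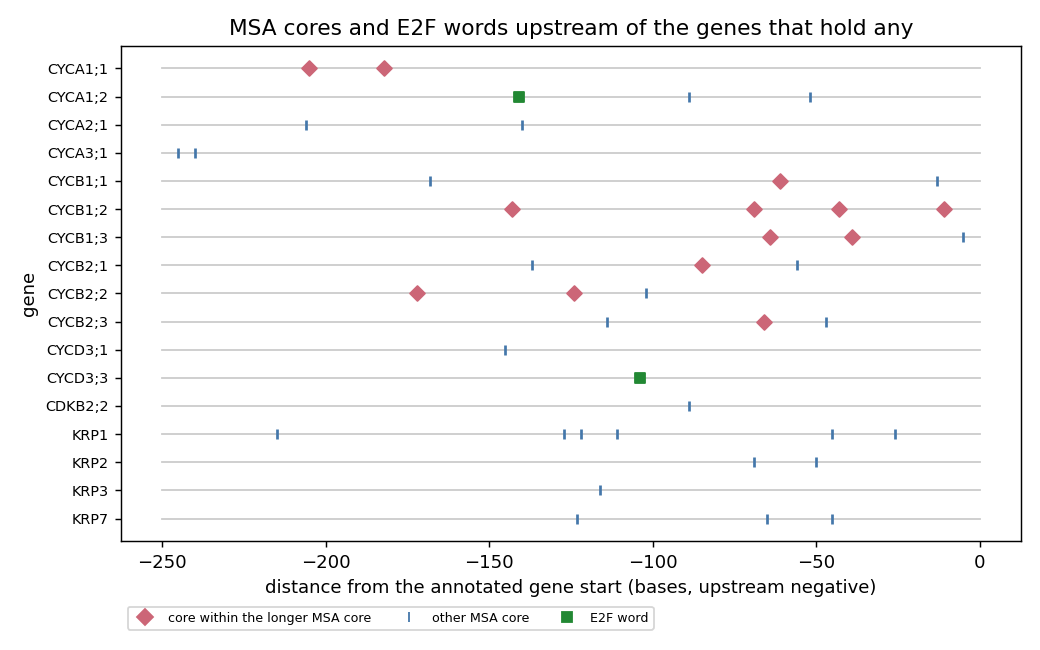
Position of MSA cores and E2F words in the 250 bases upstream of the annotated start, for the 17 of the 36 genes that hold any. The x axis gives the distance of the first base of each match from the start. Diamonds, cores within the longer MSA core, occur in CYCA1;1 and 6 B cyclins, and ticks are other cores.

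The genes were split by the longer core after their fold changes had been seen, so the split cannot test a link between them. It was not made over the whole genome. Of the 7 genes with the longer core, 6 had a negative fold change, with a median of -0.64, beside 9714 of all 18642 genes lower by sign. They include all 3 genes at unadjusted p under 0.05, a level at which 4.26% of all genes were lower. Of the 28 tested genes without the longer core, 18 had a positive and 10 a negative fold change, with a median of 0.09. Since 6 of the 7 genes with it are B cyclins, core and class cannot be told apart in this split. Within the B cyclins, the 6 with the longer core had a median of -0.51, with 5 lower. The 3 B cyclins without it had a median of -0.02, with 2 lower. The pattern was not uniform, since CYCB1;2, with the most copies, had a log2 fold change of 0.05. In the 12 genes listed for mitosis and cytokinesis, the 5 with the longer core were all lower, with a median of -0.15 and none at unadjusted p under 0.05. Of the 7 without it, 4 were lower and 3 higher, with a median of -0.06. The only gene of that list at unadjusted p under 0.05, KNOLLE, is among those without the longer core, though it holds 1 MSA core.

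The other genes of the pathway were read from 8 lists holding 84 genes, of which 78 were tested. None passed the adjusted threshold in edgeR. At an unadjusted p under 0.05, 2 were higher and 3 lower, beside 2.57% and 4.26% of all genes. The genotypes did not overlap for 4 higher genes (CYCD6;1, CDKF;1, SMR4 and DEL1), beside 5.57% of all genes. They did not overlap for 6 lower genes (SMR1, MYB3R1, MYB3R3, APC11, PCNA2 and KNOLLE), beside 6.62% of all genes. None of these counts is read as a difference from all genes. By sign, 31 of the 78 lay above and 47 below WT. The median of their log2 fold changes was -0.11. Of the remaining cyclins, 3 of 7 were tested, all higher by sign. CYCD6;1, a cyclin of formative divisions in the root, had 4.33, 3.72 and 3.29 CPM in transgenic buds and 2.45, 3.00 and 3.14 CPM in WT buds, without overlap (log2 fold change 0.40, SE 0.29). CYCD4;2 had a log2 fold change of 0.44 and CYCD5;1 one of 0.14. Among 8 genes for CDK partners and regulating kinases, none was under 0.05. CDKF;1, which activates other CDK-activating kinases, had one of 0.15, CDKD;2 one of 0.18 and CKS2, a docking subunit, one of -0.12.

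The SIM and SMR proteins are CDK inhibitors outside the KRP family. Of the 8 tested, 1 was higher and 1 lower at an unadjusted p under 0.05, beside 2.57% and 4.26% of all genes. With so few genes, these counts are not read as a difference from all genes. SMR4 had 3.29, 4.23 and 3.51 CPM in transgenic buds and 1.93, 2.63 and 0.91 CPM in WT buds (log2 fold change 1.02, SE 0.39, edgeR unadjusted p = 0.0297, adjusted p = 0.72). SMR1, also named LGO, had 0.88, 0.87 and 1.36 CPM in transgenic buds and 2.71, 1.88 and 1.61 CPM in WT buds (log2 fold change -0.99, SE 0.42, edgeR unadjusted p = 0.0451, adjusted p = 0.722). Neither overlapped between genotypes, and SMR6 had a log2 fold change of -0.45. Among the 9 RBR1, E2F and DP genes, DEL1, an atypical E2F that delays endoreduplication, had 4.89, 4.74 and 5.80 CPM in transgenic buds and 2.13, 3.46 and 3.63 CPM in WT buds (log2 fold change 0.75, SE 0.30, edgeR unadjusted p = 0.033, adjusted p = 0.72). DPA had a log2 fold change of -0.57 and E2FB one of -0.27.

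All 5 MYB3R genes had a negative fold change, from -0.44 to -0.11 with a median of -0.40, and none was at an unadjusted p under 0.05. By sign, 9714 of all 18642 genes were lower. What each MYB3R factor does at the MSA element was not told apart here, so the shared sign is not read as a loss of activation. Whether it bears on the genes with the MSA element was not tested. MYB3R1 had 8.65, 11.2 and 12.0 CPM in transgenic buds and 13.6, 14.1 and 15.5 CPM in WT buds, without overlap (log2 fold change -0.44, SE 0.19, edgeR unadjusted p = 0.0512, adjusted p = 0.722). MYB3R3 also did not overlap, with 5.37, 5.68 and 5.22 CPM in transgenic buds and 6.38, 7.81 and 7.33 CPM in WT buds (log2 fold change -0.40, SE 0.22). MYB3R5, at about 1 CPM, had one of -0.30.

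KNOLLE, the syntaxin of the cell plate, had 28.0, 24.0 and 30.3 CPM in transgenic buds and 49.5, 34.8 and 35.1 CPM in WT buds, without overlap (log2 fold change -0.54, SE 0.18, edgeR unadjusted p = 0.0176, adjusted p = 0.72). In the same list, PANS1, which protects cohesion between sister chromatids, had a log2 fold change of -0.49 and MAD2, of the spindle checkpoint, one of -0.17. Among DNA replication genes, PCNA2, a sliding clamp of DNA polymerase, had 20.19, 16.9 and 22.3 CPM in transgenic buds and 32.2, 25.9 and 24.0 CPM in WT buds (log2 fold change -0.47, SE 0.18, edgeR unadjusted p = 0.0294, adjusted p = 0.72). RNR2A, a ribonucleotide reductase subunit, had a log2 fold change of -0.42, and ICU2, a DNA polymerase subunit, one of -0.57. None of the 17 APC/C genes, which include the ligase that degrades A and B cyclins, was under 0.05. APC6 had a log2 fold change of -0.33, APC11 one of -0.31, and UVI4, an inhibitor of the complex, one of 0.34.

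The spread between replicates was close to that of other genes. The SD of log2 CPM within genotypes had a median of 0.29 over the 35 genes tested and 0.28 over all genes tested. It was smallest for CYCA2;3 (0.10), CYCD3;2 (0.10), KRP4 (0.13) and CDKB2;1 (0.14), and largest for KRP1 (0.57), CYCB2;1 (0.54), CYCB2;3 (0.54) and KRP5 (0.53). CYCB1;1 had an SD of 0.49, at percentile 77.4 of all genes tested. It had 7.61, 7.72 and 10.2 CPM in transgenic buds and 12.5, 5.26 and 10.7 CPM in WT buds. Its highest and lowest values were both in WT libraries. Over all 6 libraries, the highest value exceeded the lowest by 1.19 times for CYCD3;2 and by 5.31 times for CYCB2;1.

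**Figure D5:**
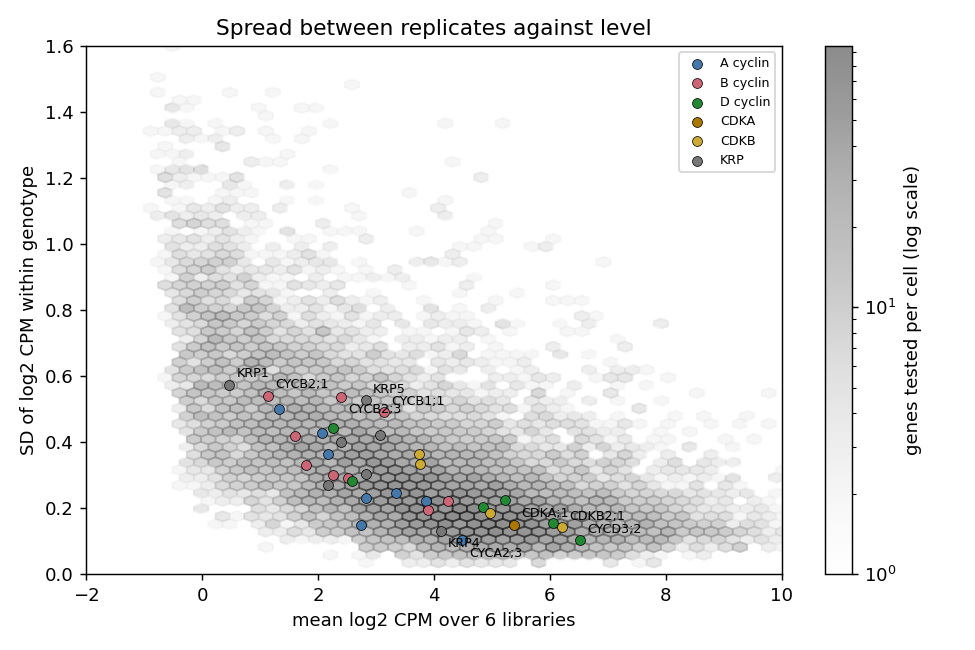
SD of log2 CPM within genotype against mean log2 CPM over 6 libraries. Grey cells count all genes tested (those with an SD above the plotted range are left out), and coloured points are the 35 genes. CYCD3;2, CYCA2;3 and CDKB2;1 lie low, and KRP1, CYCB2;1, CYCB2;3 and KRP5 lie high.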

How the data were processed

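RNA was sequenced from 3 BnA9::BnMAGL8.1 and 3 WT samples. Per the study's methods and the submitters' processing notes, the authors mapped reads with HISAT2 to the Arabidopsis genome (TAIR10) with the transgene's coding sequence added, and deposited raw counts per gene from featureCounts. Versions, strand, the treatment of read pairs and of reads that map more than once were not given in the sources used here. In each library 75.5–78.0% of the counts from 1 to 20 were even. If both mates of a pair were counted, which the sources do not say, a count stands for less than a fragment, so the 3-count limit below rests on fewer fragments and the chi-square values overstate the excess over counting error. The study tested with DESeq2.

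Here the deposited counts were tested with edgeR 4.0.16 (R 4.3.3): TMM scaling, filterByExpr (minimum count 10, minimum total 15), and the quasi-likelihood test of genotype, adjusted over 18642 genes, with 95% intervals from the SE. CPM uses the TMM library sizes. CPM per kb uses the union of RefSeq TAIR10.1 exons, which may differ from the gene models the authors counted, and sequences are RefSeq TAIR10.1. Replicate libraries of a genotype differed by more than counting error (chi-square per degree of freedom 14.7 to 52.8). At this depth 3 counts, the least a library could be relied on to show, were 0.193 to 0.240 CPM, which covers counting error only. The test was tried on simulated data before use.

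Alternatives were DESeq2 1.42.0, limma 3.58.1 (voom with quality weights), other scaling and filters, leaving out each library, a replicate block and a clock score covariate. All 36 genes were named. Full statistics were given for those with an unadjusted p under 0.05 or without overlap and for at least 1 per class, and up to 3 genes of each other list were named by smallest p. CYCB1;5 and CYCB2;5 were named for their shared sequence. Gene names were those of the RefSeq table and standard usage. The members and lists were chosen with earlier results of these data known. No samples were left out.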

Additional observations from a re-analysis of the deposited data

How the results depend on the processing

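Over 13 alternatives to the fit described, none of the 35 genes tested passed the adjusted threshold, and of 454 log2 fold changes 33 changed sign. The signs of 18 genes, CYCA1;1, CYCB1;3, CYCB2;1 and CYCA2;3 among them, held throughout. The count of higher genes at an unadjusted p under 0.05, 0 in the fit described, was 1 with voom and 1 with the clock score covariate (CYCA2;3 each time), and 0 to 2 when a library was left out. The count of lower genes, 3, was 0 to 3 when a library was left out: 0 without transgenic replicate 2 and 1 without WT replicate 1. Genes without overlap between the remaining libraries then numbered 1 to 7 higher and 3 to 6 lower, where fewer libraries make overlap rarer. In the same fits 18.1% to 27.4% of all genes did not overlap, both directions together. Of all genes, 3.97% to 9.31% had an unadjusted p under 0.05 in them. These counts are therefore not read as a difference from all genes. Outside the fits that left out a library, the sign changed for CYCA2;4 (-0.005219) and CYCD4;1 (-0.0414) with voom. It also changed for CYCB2;4 (-0.003861) with the clock score covariate. The cause of these sign changes was not tested.

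When a library was left out, the log2 fold changes whose sign changed ran from -0.51 to 0.003134 for CYCA2;2, -0.05888 to 0.24 for CYCA2;4, -0.19 to 0.32 for CYCA3;1, -0.0637 to 0.25 for CYCA3;2, -0.44 to 0.08993 for CYCB1;1, -0.11 to 0.17 for CYCB1;2, -0.0928 to 0.11 for CYCB1;4, -0.16 to 0.21 for CYCB2;4, -0.27 to 0.02389 for CYCD2;1, -0.08666 to 0.03671 for CYCD3;2, -0.18 to 0.43 for CYCD4;1, -0.31 to 0.16 for CDKB1;2, -0.01623 to 0.15 for CDKB2;1, -0.35 to 0.12 for CDKB2;2, -0.05209 to 0.60 for KRP1, -0.19 to 0.48 for KRP5 and -0.27 to 0.07077 for KRP6.

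Replicate numbers did not pair the samples: correlations of same-numbered libraries were -0.351 to -0.0756, and 0 of the 3 transgenic libraries correlated best with its own number. With a replicate block, 0 genes passed, 0 were higher and 2 lower at an unadjusted p under 0.05, and CYCB2;4 was at -0.01574. Over all genes edgeR called 3, DESeq2 62 and voom 0. Among genes whose sign held, leaving out a library moved the fold change by over 1.5 times for CYCB2;2 (-1.07 to -0.44), KRP2 (0.20 to 0.65), KRP3 (0.09 to 0.68), KRP7 (0.15 to 0.59), CYCD3;1 (0.14 to 0.45) and CYCA1;2 (-0.70 to -0.23), among others. Depth limits the scarce genes most: CYCA2;1 was not tested.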
